A study of Mus musculus with 8 samples.

Results

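Untargeted cutting by the transposase of CUT&Tag was measured in regulatory T (Treg) cells, a CD4+ lineage that holds immune responses in check, and compared between WT and R397W Foxp3. The 4 libraries made with normal rabbit IgG, 2 WT and 2 R397W, were taken by their titles from the 8 libraries of the series, and the other 4 used a rabbit polyclonal antibody against Foxp3. All 4 were read over the whole set of 5521 Foxp3 binding sites that the authors had sorted into a common class (3847 sites), a cTreg class (727) and an eTreg class (effector Treg, 947). WT cells were Foxp3WT-IRES-hCD2/Foxp3-IRES-GFP and R397W cells were Foxp3R397W-IRES-hCD2/Foxp3-IRES-GFP, so both genotypes also carried a GFP-tagged Foxp3 allele. Cells were sorted fresh as CD4+hCD2+GFP- from spleen and lymph nodes of mice of strain C57BL6/J, whose age the labels do not give, and the labels name no treatment. Each reporter follows its Foxp3 allele, so this gate kept cells using the hCD2-tagged allele. Whether libraries 1 and 2 of a genotype came from separate mice is not stated, so p-values here measure the spread between libraries, which could be technical alone.

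In CUT&Tag a protein A/G-Tn5 fusion is held near an antibody and inserts sequencing adapters into nearby DNA. IgG has no chromatin target, and insertions in an IgG library come mainly from transposase that reaches open DNA by itself. Active promoters, which are depleted of nucleosomes and often lie in CpG islands, are known as places where Tn5 inserts readily. Foxp3 is an X-linked forkhead transcription factor that defines Treg cells, and the R397W change lies in its DNA-binding domain. An IgG library is used as the floor against which antibody signal is read, and a floor that differed by site or genotype would enter such a reading.

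The site with the highest IgG signal at a promoter lay at 1700056E22Rik, and other promoter sites held no IgG read at all. To show the difference in base composition between these extremes, the 250 bases before the gene start are given for the 4 promoters with the highest and the 3 with the lowest mean IgG signal, among the 444 sites whose centre lay within 250 bp of a start. Sequences are RefSeq, build GRCm38.p6, written 5′ to 3′ on the strand of the gene, with each CG dinucleotide in capitals.
1700056E22Rik, an uncharacterised gene, chr1:184033999-184034248, minus strand: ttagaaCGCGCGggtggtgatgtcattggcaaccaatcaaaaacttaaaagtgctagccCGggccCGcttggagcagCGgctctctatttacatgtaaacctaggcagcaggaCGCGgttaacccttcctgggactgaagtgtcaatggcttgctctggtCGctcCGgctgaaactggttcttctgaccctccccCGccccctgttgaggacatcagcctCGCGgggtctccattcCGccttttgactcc
Get1, a receptor for tail-anchored membrane proteins, chr16:96145150-96145399, plus strand: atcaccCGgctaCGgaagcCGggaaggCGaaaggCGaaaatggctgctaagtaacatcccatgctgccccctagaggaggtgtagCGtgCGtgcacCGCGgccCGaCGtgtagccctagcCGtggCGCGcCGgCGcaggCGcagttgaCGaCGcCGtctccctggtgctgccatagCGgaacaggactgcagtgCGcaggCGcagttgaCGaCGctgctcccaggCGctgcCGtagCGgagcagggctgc
Cfap20, a cilium and flagellum protein, chr8:95434870-95435119, minus strand: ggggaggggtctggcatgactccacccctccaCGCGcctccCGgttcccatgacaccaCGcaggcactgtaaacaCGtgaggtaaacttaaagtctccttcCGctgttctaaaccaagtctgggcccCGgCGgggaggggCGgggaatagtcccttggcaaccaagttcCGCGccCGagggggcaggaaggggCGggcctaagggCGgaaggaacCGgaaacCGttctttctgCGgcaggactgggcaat
Psph, phosphoserine phosphatase of serine synthesis, chr5:129787254-129787503, minus strand: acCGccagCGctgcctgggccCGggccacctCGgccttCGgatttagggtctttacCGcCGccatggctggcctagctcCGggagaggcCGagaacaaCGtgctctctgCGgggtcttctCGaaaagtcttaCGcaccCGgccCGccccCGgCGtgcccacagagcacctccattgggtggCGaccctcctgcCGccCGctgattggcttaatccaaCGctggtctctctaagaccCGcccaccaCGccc
Foxp3, chrX:7579426-7579675, plus strand: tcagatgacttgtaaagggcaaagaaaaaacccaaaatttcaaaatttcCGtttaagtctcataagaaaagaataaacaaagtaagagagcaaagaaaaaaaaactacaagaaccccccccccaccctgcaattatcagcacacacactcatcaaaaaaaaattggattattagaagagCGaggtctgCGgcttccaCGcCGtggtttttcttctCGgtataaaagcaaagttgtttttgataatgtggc
Zfp93, a zinc finger protein, chr7:24270168-24270417, plus strand: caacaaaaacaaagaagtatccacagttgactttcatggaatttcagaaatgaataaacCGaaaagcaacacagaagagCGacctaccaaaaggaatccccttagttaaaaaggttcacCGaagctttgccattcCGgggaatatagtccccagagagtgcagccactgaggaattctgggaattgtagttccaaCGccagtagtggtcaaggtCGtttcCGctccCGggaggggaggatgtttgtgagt
Trim5, a tripartite motif protein, chr7:104288107-104288356, minus strand: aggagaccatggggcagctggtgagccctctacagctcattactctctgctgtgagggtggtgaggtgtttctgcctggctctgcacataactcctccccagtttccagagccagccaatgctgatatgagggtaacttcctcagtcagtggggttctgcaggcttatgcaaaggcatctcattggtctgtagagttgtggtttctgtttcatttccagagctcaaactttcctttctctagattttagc
The 4 high promoters held 14, 28, 17 and 23 CG dinucleotides in these 250 bases, and the 3 low ones held 6, 8 and 0. All 7 sites were of the common class.

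The promoter of Foxp3 itself was a site with little untargeted signal. Its site had 8, 0, 0 and 0 reads in the IgG libraries WT 1, WT 2, R397W 1 and R397W 2. The Foxp3 antibody gave 53 and 34 reads there in WT against 0 and 0 in R397W. A count of 0 allows up to 3 reads. The sites at Zfp93 and Trim5 had no reads in any of the 4 IgG libraries.

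Reads in the listed sites numbered 297706 and 288223 in WT IgG against 111359 and 258781 in R397W IgG. Signal is given below either as the deposited normalised read count or as RPM, the reads at a site per 1000000 reads of that library in the listed sites. These totals are not library depths. A count of 0 allows up to 10.1, 10.4, 26.9 and 11.6 RPM in WT 1, WT 2, R397W 1 and R397W 2. These limits cover counting error only. Sites near B cell, myeloid and erythroid marker genes were not among the 5521, so those cell types could not be looked for, and the CD8 T and NK cell list held 3 sites.

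The background was patchy, and the patchiness separated libraries within a genotype. Sites with at least 1 read numbered 4030 and 1833 in WT against 4476 and 2202 in R397W. In both genotypes library 1 was broad and library 2 was narrow, and the 2 genotypes overlapped. The Foxp3 libraries split by number in the same way, with 3.13% and 44.4% of sites without reads in WT against 15.7% and 55.5% in R397W. When every IgG library was thinned to 111359 reads, sites without reads made up 28.6% and 69.0% in WT against 18.9% and 61.1% in R397W, in the same order as before thinning. The difference in the unthinned share, R397W minus WT, was −7.38 percentage points with an exact permutation p = 0.667, where 2 against 2 libraries cannot go below 0.333. The difference was 12.5 points without WT IgG replicate 2 and 13.2 without R397W IgG replicate 1. R397W minus WT between libraries of the same number was −8.08 points in library 1 and −6.68 in library 2.

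**Figure D1:**
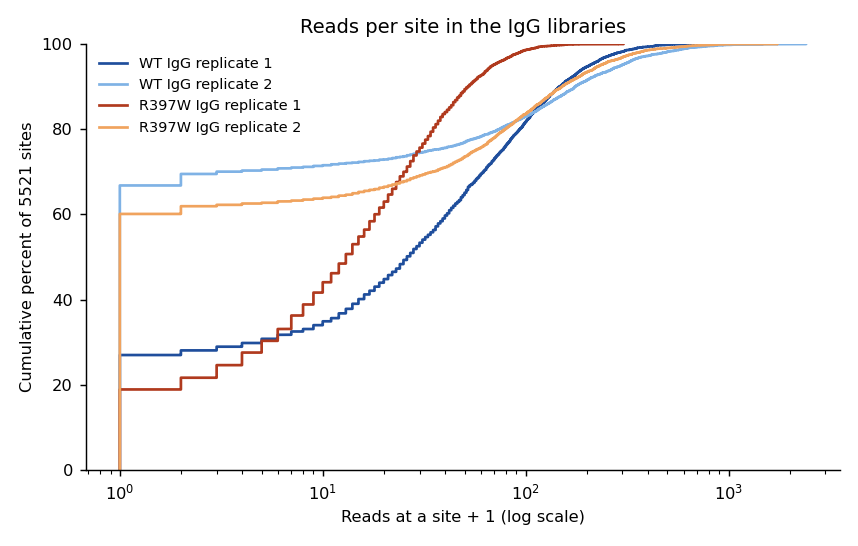
Reads per site in the 4 IgG libraries, as the cumulative percent of the 5521 sites (y axis) at or below a number of reads plus 1 (x axis, log scale), 1 line per library. The lines of WT and R397W replicate 2 start above 60%, the share of sites without reads, and those of both replicates 1 start at 27.0% and 18.9%.

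Reads of a narrow library were piled on fewer sites. Covered sites held a median of 47 and 103 reads in WT 1 and WT 2, and of 17 and 79 in R397W 1 and R397W 2. Each library's own top 55 sites (1%) took 8.60% and 17.2% of its reads in WT against 6.78% and 14.7% in R397W. That share differed by −2.16 points between genotypes (exact permutation p = 0.667), and by 2.13 points without WT IgG replicate 2 and 1.79 without R397W IgG replicate 1. Libraries of the same number differed by −1.82 and −2.51 points. Across the 4 libraries, 468 sites (8.48%) had no IgG read, 1154 had reads in 1 library, 1477 in 2, 1255 in 3 and 1167 (21.1%) in all 4.

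Libraries of the same genotype were not more alike than libraries of different genotypes. Pearson correlations of log2(RPM + 20) over the 5521 sites were 0.49 between the WT libraries and 0.46 between the R397W libraries. Between genotypes they ran from 0.41, for WT 2 with R397W 1, to 0.59, for WT 1 with R397W 1. IgG libraries correlated with Foxp3 libraries at 0.36 to 0.65. These correlations describe sites, which share libraries and base composition, and carry no test. The 2 WT libraries shared 14 of their top 55 sites and the 2 R397W libraries also shared 14, while pairs of unlike genotype shared 9 to 23.

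Promoter sites carried more background than other sites in every IgG library. A promoter site is one with its centre within 1 kb of the start of a protein-coding gene, and 592 sites met this (551 common, 17 cTreg, 24 eTreg) against 4773 other sites on chromosomes with starts in the table used here. That table gives a start for 17492 of 21900 protein-coding genes, and 138 of the 4773 (2.89%) lay within 1 kb of an end of a gene without one, so whether they are promoters is not known. Promoter sites held 406, 641, 321 and 559 RPM per site in WT 1, WT 2, R397W 1 and R397W 2, and the other sites held 153, 124, 163 and 133. The ratio was 2.66 and 5.17 in WT against 1.97 and 4.21 in R397W. It was above 1 in all 4 libraries, higher in both narrow libraries, and overlapping between genotypes. Promoter sites were also seldom empty, with reads at 95.9%, 77.2%, 96.8% and 78.9% of them against 70.0%, 27.6%, 79.0% and 34.9% of the others. The 138 sites of unknown status held 347, 552, 279 and 466 RPM per site, and without them the ratio was 2.76 and 5.76 in WT against 2.01 and 4.55 in R397W.

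The genotypes overlapped in this promoter preference. The mean log2 ratio was 1.89 ± 0.68 (SD, n = 2) for WT and 1.52 ± 0.78 (SD, n = 2) for R397W, which differed by −0.36 with an exact permutation p = 0.667. Without WT IgG replicate 2 the difference was 0.12, and without R397W IgG replicate 1 it was 0.18. Between libraries of the same number, R397W minus WT was −0.43 in library 1 and −0.30 in library 2. Among common sites alone the log2 ratio was 1.32 and 2.27 in WT against 0.91 and 1.96 in R397W. For the 24 eTreg promoter sites against the other eTreg sites the ratios were 1.38, 1.16, 1.12 and 2.06.

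Mean background per site peaked just beside gene starts. At 101 to 250 bp from a start (115 sites) the mean was 514 and 912 RPM in WT against 414 and 838 in R397W. At 0 to 100 bp (329 sites) it was 429 and 673 in WT against 334 and 555 in R397W. It fell to 203, 267, 215 and 256 at 1001 to 2000 bp. The 1970 sites over 50 kb from a start in the table held 138 and 111 in WT against 153 and 126 in R397W. The 1355 of them that were also over 50 kb from the ends of genes without a start held 123, 93.8, 145 and 105. The highest bin was the same in all 4 IgG libraries, and also in the 4 Foxp3 libraries, at 284 and 639 in WT against 340 and 671 in R397W. The share of sites with reads gave another order. At 0 to 100 bp it was 96.7%, 85.1%, 98.5% and 86.0% in the IgG libraries WT 1, WT 2, R397W 1 and R397W 2. At 101 to 250 bp it was 97.4%, 75.7%, 97.4% and 80.0%, higher only in WT 1.

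**Figure D2:**
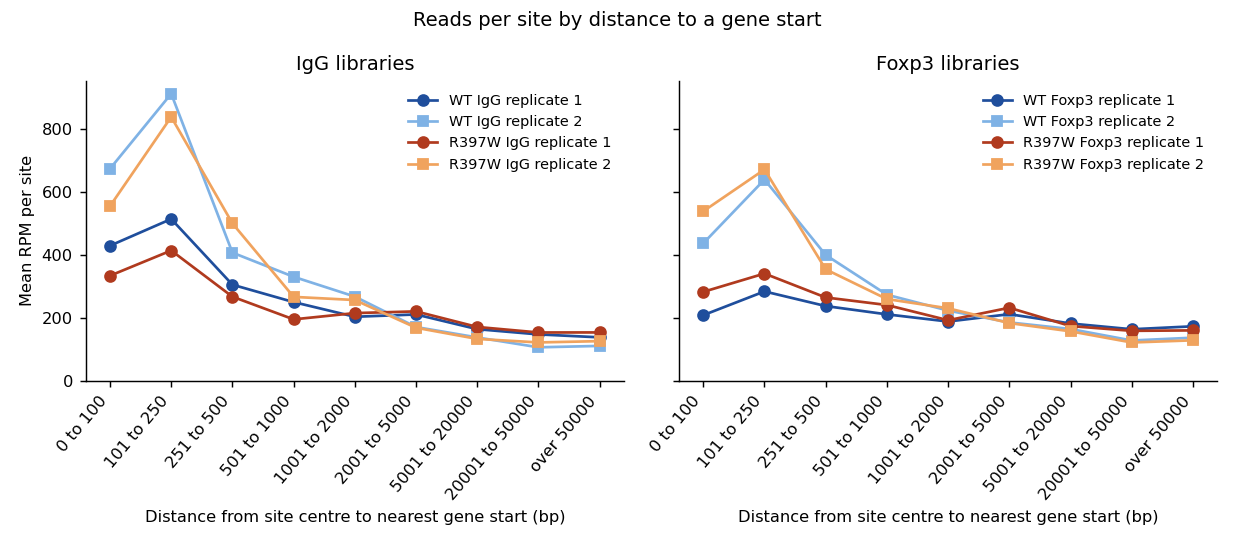
Mean RPM per site (y axis) in bins of distance from the site centre to the nearest gene start of the table in bp (x axis), with 1 line per library, IgG libraries on the left and Foxp3 libraries on the right. In all 4 IgG libraries the highest point is at 101 to 250 bp, from 414 to 912, and the lines fall to between 111 and 153 beyond 50 kb.

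The Foxp3 antibody libraries also favoured promoters, with ratios of 1.29 and 3.05 in WT against 1.70 and 3.60 in R397W. In each of the 4 pairs of IgG and Foxp3 library with the same genotype and number, which the labels do not say were made from shared cells, the IgG ratio was the higher one. The log2 ratio of IgG minus that of Foxp3 was 1.04 and 0.76 in WT against 0.21 and 0.22 in R397W. Its mean was 0.56 ± 0.41 (SD, n = 4), with an exact sign permutation p = 0.125, the smallest that 4 pairs allow. The gap was wider in both WT pairs than in either R397W pair. This difference between genotypes was −0.68, with an exact permutation p = 0.333, the smallest that 2 against 2 allow, and it rests on the antibody libraries as well as on IgG.

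The 55 sites with the highest mean IgG signal (1% of all) were then described. Their level is what chose them and is given without a test. They were 51 common, 2 cTreg and 2 eTreg sites, and each had reads in all 4 IgG libraries. Of the 54 on chromosomes with starts in the table, 26 were promoter sites (48.1%, exact Clopper-Pearson 95% interval 34.3 to 62.2%, counting error only), against 11.0% of all such sites. The sites at Skil, Atg16l1 and Necap2, which lay 49, 151 and 26 bp from an end of a gene without a start in the table, are among the 54, and without such sites the share was 26 of 51 (51.0%). Among common sites the shares were 52.0% and 14.7%. Promoters made up 44.7% of the highest 10% of sites by the same mean and 0.737% of the lowest 10%. The 55 sites took 7.32% and 14.9% of the reads of WT IgG and 4.91% and 12.9% of R397W IgG, and 3.60%, 9.81%, 4.45% and 9.03% of the reads of the Foxp3 libraries WT 1, WT 2, R397W 1 and R397W 2.

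The highest site of all lay inside Zbtb7a, which encodes a transcriptional repressor of lymphoid and erythroid lineage choice, at chr10:81137195-81137595 (mm10), 1124 bp from the gene start. Its signal was 4961 and 8369 RPM in WT IgG against 1643 and 4177 in R397W IgG. In the Foxp3 libraries it was 1501 and 4604 in WT against 1968 and 4171 in R397W. In RPM both WT IgG libraries exceeded their Foxp3 partners at this site, and 1 of the 2 R397W libraries did so. By deposited counts neither R397W IgG library did, with 414 and 688 against 575 and 756 in Foxp3.

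The next was the promoter of 1700056E22Rik shown above (site chr1:184033929-184034329, centre 131 bp before the start), with 2553 and 5995 RPM in WT IgG against 2550 and 6732 in R397W IgG. All 4 RPM values were above those of the paired Foxp3 libraries, which were 1294, 4609, 2480.4 and 3939.5. By deposited counts R397W 1 went the other way, with 643 in IgG against 725 in Foxp3. Library number, not genotype, separated its values.

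A site inside Amz2, which encodes a zinc metallopeptidase (chr11:109431317-109431717, 5571 bp from the start), held 1730 and 7647 RPM in WT IgG against 1078 and 3080 in R397W IgG. A site 17823 bp from Ramp3, an accessory protein of calcitonin-family receptors (chr11:6695101-6695501), held 4222, 1874, 2721 and 3884 in the order WT 1, WT 2, R397W 1, R397W 2. The promoter of Septin7, a cytoskeletal GTPase (chr9:25252098-25252498, centre 307 bp after the start), held 1253, 4299, 969.8 and 3621. The genotypes overlapped at each of these 3 sites, and the Ramp3 site did not follow the usual order of the libraries within WT.

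The highest sites of the cTreg and eTreg classes had lower values than the leading common sites. In the cTreg class the first was inside Rasa3, a Ras GTPase-activating protein (chr8:13600094-13600494), at 1105, 1513, 458 and 3192 RPM. The second lay upstream of Tcf7, a transcription factor of naive and memory T cells (chr11:52299652-52300052), at 1475 and 669.6 in WT against 1607 and 1584 in R397W. In the eTreg class they lay inside Mpp2, a membrane scaffold protein (chr11:102087137-102087537), at 1048, 3015, 844 and 1866, and inside Acot11, an acyl-CoA thioesterase (chr4:106794217-106794617), at 1145, 3327, 593 and 340.1. The 2 WT values at Acot11 were above both R397W values.

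**Figure D3:**
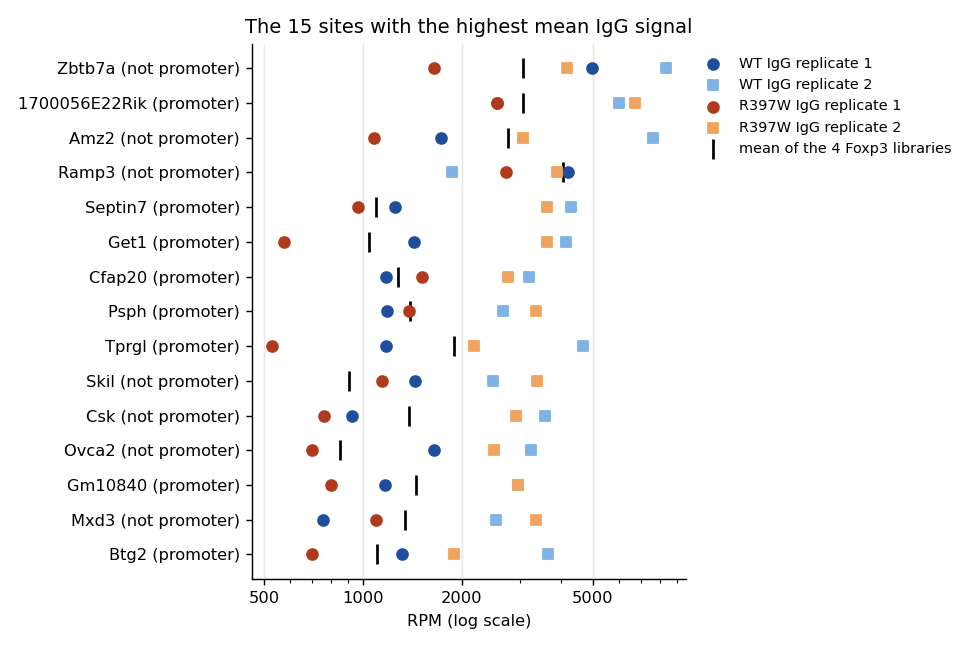
RPM (x axis, log scale) at the 15 sites with the highest mean IgG signal (y axis, by gene, with promoter status), as 1 point per IgG library and a tick for the mean of the 4 Foxp3 libraries. At Zbtb7a the points run from 1643 to 8369, and circles (replicate 1) mostly lie left of squares (replicate 2) in both genotypes, with the WT values at Ramp3 as an exception.

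Which sites led differed from library to library. Exactly 5 sites were in the top 55 of each of the 4 IgG libraries, namely those at Zbtb7a, 1700056E22Rik, Amz2, Psph and Skil, a corepressor of SMAD signalling, and 2 of them were promoters. Whether the Skil site is one is not known. A further 107 sites were in the top 55 of 1 library only. In RPM, IgG signal exceeded that of the paired Foxp3 library in all 4 pairs at 18 of the 55 high sites (32.7%), against 177 of all 5521 (3.21%). RPM compares shares of reads within the listed sites, and the count was not repeated with the deposited counts, which can change the direction at a site. For promoters the count was 90 of 592 (15.2%), and for the other sites 82 of 4773 (1.72%). The 55 sites were chosen on the IgG values that enter this count, and the promoter sites were not. A site can be counted only with reads in all 4 IgG libraries, as all 55 had, against 1167 of the 5521 (21.1%). Promoter sites were also seldom empty, and neither set was compared with sites of like coverage.

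Promoters with more background were richer in G and C. The 444 promoter sites within 250 bp of a start were split into 4 bins of 111 by mean IgG signal, whose median was 984, 571, 336 and 125 RPM from the highest bin to the lowest. Over the 300 bases from 250 before to 50 after the start, the median GC content was 63.0%, 61.7%, 56.7% and 51.7% in these bins, and the median number of CG dinucleotides was 25, 22, 19 and 14. The 21006 promoters of the table had medians of 56.7% and 13. The observed to expected ratio of CG dinucleotides was 0.87 in the highest bin and 0.66 in the lowest, against 0.57 over all promoters.

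Among the IgG libraries the relation was lowest in R397W 1, which was broad and also had the fewest reads (111359). Depth was not separated from it, since the correlations were not repeated on thinned reads. Spearman correlation across the 444 promoters between GC content and IgG signal was 0.38 and 0.48 in WT against 0.17 and 0.41 in R397W. It was 0.14 and 0.37 in the WT Foxp3 libraries and 0.17 and 0.35 in the R397W Foxp3 libraries. These values describe promoters and carry no test. Split instead by the observed to expected CG ratio, the bin with the lowest ratio had the lowest mean signal in all 4 libraries, at 333 and 386 RPM in WT against 309 and 373 in R397W. The highest bin stood at 518 and 927 in WT against 361 and 708 in R397W. In R397W the 3 upper bins showed no further rise, at 389, 358 and 361 in library 1 and 740.4, 691 and 708 in library 2. The Foxp3 libraries of both genotypes did not rise through all bins either. From the lowest bin up, WT Foxp3 held 238, 236, 219 and 218 in library 1 and 338, 521, 556 and 541 in library 2.

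**Figure D4:**
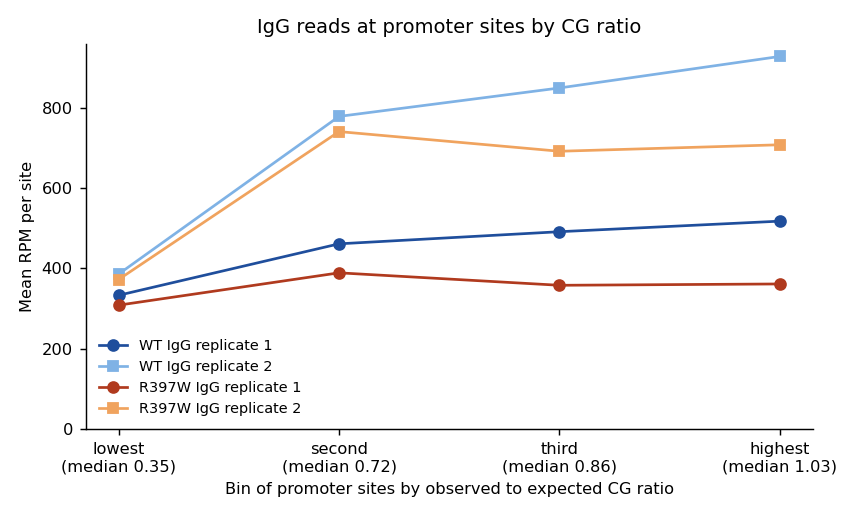
Mean RPM per site (y axis) at promoter sites in bins of 111 sites by the observed to expected ratio of CG dinucleotides (x axis, with the median ratio of each bin), with 1 line per IgG library. Every line is lowest in the lowest bin, and only the WT lines rise through all 4 bins, to 518 and 927.

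Short motifs were counted on both strands of the same 300 bases, as a description of letters and not of bound sites, and no motif holds another. The GC box GGGCGG, bound by SP and KLF factors, was in 75.7%, 64.9%, 50.5% and 33.3% of the bins from highest to lowest, and in 46.6% of all promoters. The ETS core CCGGAAG was in 27.9%, 24.3%, 31.5% and 18.9%, against 11.7% of all. The TATA box TATAAA went the other way, at 2.70%, 7.21%, 8.11% and 13.5%, against 12.5% of all. A forkhead motif GTAAACA was in 10.8%, 7.21%, 6.31% and 11.7%, against 3.02% of all, with no order along the bins. CCAAT stood at 35.1%, 32.4%, 23.4% and 25.2% (all 38.2%), and the AP-1 motif TGANTCA at 4.50%, 6.31%, 8.11% and 5.41% (all 6.99%). The NRF1 motif, searched as a palindromic core, was in 2.70%, 2.70%, 2.70% and 0.901% (all 1.34%). A gene start of the table on the other strand within 1 kb was found at 15.3%, 10.8%, 8.11% and 6.31%.

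No site passed the test of genotype. With limma on log2(normalised read count + 1), 0 of 5521 sites (0%) had a Benjamini-Hochberg adjusted p below 0.05, and the lowest was 0.853. At an unadjusted p below 0.05, limma had 15 sites higher in R397W (0.272%) and 11 lower (0.199%). On the recovered whole reads edgeR called 0 of 5053 sites with at least 1 IgG read (lowest adjusted p = 0.185; 15 higher and 28 lower unadjusted), and DESeq2 called 0 (lowest adjusted p = 0.9997; 166 and 30). The median fitted difference over all sites was 0.33 on the log2 scale with the deposited factors and 0.14 with equal library totals, so each site's difference is read against that shift. This median was −0.11 without WT IgG replicate 2, 0 without R397W IgG replicate 1, 1.66 without WT IgG replicate 1 and 1.64 without R397W IgG replicate 2.

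The count of calls turned on single libraries. Without R397W IgG replicate 2, limma called 826 sites (15%), of which 824 were higher in R397W. WT was at 0 in both libraries at 822 of those 824, and the library left out was itself at 0 at 715. The lone R397W library is then assumed to vary like the WT group. Without WT IgG replicate 1 there were 12 calls (0.217%), all with R397W at 0 in both libraries, and without either of the other 2 libraries there were 0.

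The site in Zbtb7a was not called, but passed the threshold under other settings. Its normalised counts were 976 and 1200.2 in WT against 414 and 688 in R397W, and the groups did not overlap. The difference was −1.02 (SE 0.57), with a limma adjusted p of 0.853. With the lowest 25% of sites removed it was the only call (limma adjusted p = 1.04e-05, 1 of 4140, 0.0242%). In a fit over all 8 libraries it was 1 of 2 calls (0.0362%), with a limma adjusted p of 0.00117. Over all settings and tools, edgeR and DESeq2 included, its adjusted p ran from 1.04e-05 to 1. The other was a site of Pnrc2, a nuclear receptor coactivator, at chr4:135876594-135876994, with 324 and 0.498 in WT against 278 and 409.8 in R397W. The WT value of 324 lay between the R397W values, and this site is named because it was called, a choice made after its values were seen.

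Sites whose genotypes did not overlap were counted next. In R397W 625 sites (11.3%) were higher than in WT in both libraries, and 304 (5.51%) were lower. With equal library totals these became 562 (10.2%) and 398 (7.21%). WT was at 0 in both libraries at 108 of the 625, and R397W at 37 of the 304. Promoter sites were split 84 higher (14.2%) and 92 lower (15.5%), and other sites 521 (10.9%) and 204 (4.27%). With equal totals the promoter split became 55 and 107, and that of the other sites 495 and 279. Lower sites were thus a larger share at promoters than elsewhere under both scalings, which was not tested. Coverage differs between these sets, since a site without reads in a library of each genotype cannot be counted as separated, and promoter sites were seldom empty. Of the 1167 sites with reads in all 4 IgG libraries, 204 (17.5%) were higher and 166 (14.2%) lower with the deposited factors. Promoters were not compared with other sites of like coverage.

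**Figure D5:**
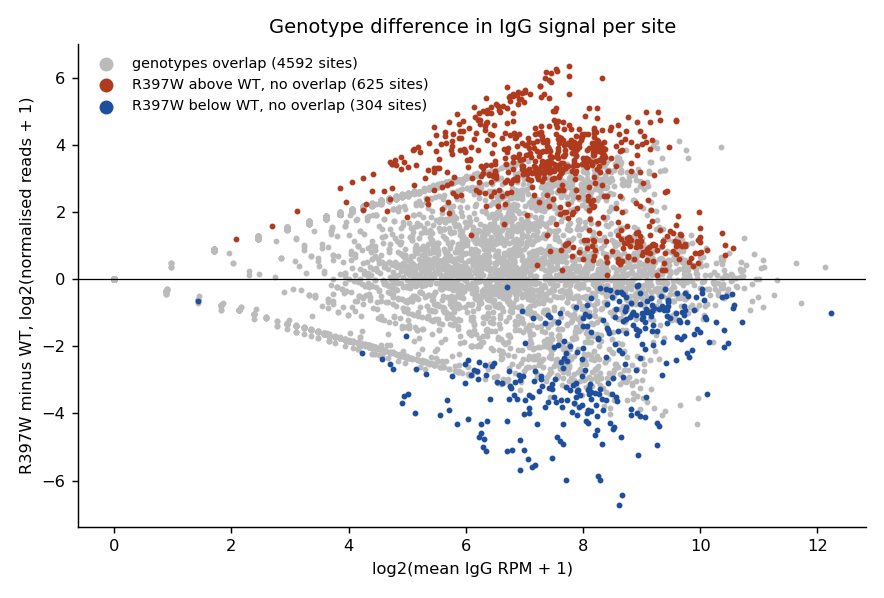
Difference in IgG signal, R397W minus WT, on the scale of log2(normalised reads + 1) (y axis) against log2(mean IgG RPM + 1) (x axis), with 1 point per site. Red points are the 625 sites where both R397W libraries lay above both WT libraries, blue points the 304 where they lay below, and grey points the sites that overlapped; the point farthest right is Zbtb7a, at −1.02.

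The largest fitted differences came from sites with no reads in 1 genotype, for which no fold is given. With no protein-coding gene within 100 kb, the common site chr16:5393392-5393792 had normalised counts of 0 and 0 in WT against 65.6 and 98.6 in R397W. The same held inside Slamf1, a lymphocyte adhesion and signalling receptor (chr1:171782535-171782935), with 0 and 0 against 97.3 and 58.5. Signal was in WT at chr13:52026363-52026763, also over 100 kb from a gene, with 44.3 and 87.6 against 0 and 0. A site in Mbnl1, a splicing regulator (chr3:60476862-60477262), had 23.1 and 161 in WT against 0 and 0.

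In the cTreg class the sites with signal in R397W only lay 70840 bp upstream of Satb1, a chromatin organiser of T cells (chr17:51903930-51904330), with 97.3 and 49.6 against 0 and 0 in WT, and inside Bcl11b, a T-lineage transcription factor (chr12:107996158-107996558), with 104 and 37.2 against 0 and 0. Those higher in WT lay inside Bcl2, which blocks apoptosis (chr1:106606881-106607281), with 77.2 and 33.4 against 0 and 0, and inside Akap13, an anchoring protein for protein kinase A (chr7:75586020-75586420), with 52.3 and 316 against 10.8 and 0.

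In the eTreg class R397W alone had signal at chr14:61818462-61818862, over 100 kb from a gene, with 39.7 and 125.6, and inside Atf6, a sensor of unfolded proteins (chr1:170729349-170729749), with 71.9 and 37.1. WT alone had it inside Celf2, an RNA-binding protein (chr2:6723569-6723969), with 54.1 and 201 and inside Exoc2, an exocyst subunit (chr13:30913048-30913448), with 31.4 and 226. The limma adjusted p was 0.853 at these 12 sites. At Celf2 and Exoc2 the WT values themselves lay far apart.

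Counts of 0 play no part at the 991 sites with at least 5 reads in each of the 4 IgG libraries. Of these, 167 were higher in R397W without overlap and 152 lower. Over all 5521 sites the shares were 11.3% and 5.51%, and over the 1167 with reads in all 4 libraries 17.5% and 14.2%. In random order, 2 against 2 libraries would lie apart, in either direction, at a share of 0.333 of sites. The counts are therefore not read as a genotype effect. A site with close values within each genotype lay inside Tpst2, a tyrosylprotein sulfotransferase (chr5:112298359-112298759). It held 17.2 and 18.9 in WT against 154 and 194 in R397W, a difference of 3.19 (SE 0.66, limma adjusted p = 0.853). Its unadjusted limma p was 0.00796. The R397W values lay far above both WT values, and the site was not called.

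Other full-coverage sites higher in R397W lay 39370 bp from Cxcr4, a chemokine receptor (chr1:128548629-128549029), with 3.30 and 6.97 against 106 and 54.7 and a difference of 3.72 (SE 1.27), inside Tasp1, the protease taspase (3.47), and inside Ldlrad4, an inhibitor of TGF-beta signalling (3.38). Those lower in R397W lay near Lypd3, a GPI-anchored surface protein (chr7:24645020-24645420), with 102 and 525 against 11.3 and 37.5 and a difference of −3.42 (SE 1.17). Another lay inside Fnbp1, a membrane-bending adaptor (chr2:31082687-31083087), with 95.6 and 119 against 17.4 and 7.61 and a difference of −3.10 (SE 0.90). The last were at Gm51999 (−2.90) and near Rrad, a small GTPase (−2.84). Each had a limma adjusted p of 0.853.

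Summing the sites of a gene gave the same outcome. With limma 0 of 2759 genes (0%) passed, with a lowest adjusted p of 0.962 and 11 higher and 8 lower at an unadjusted p below 0.05 (0.399% and 0.29%). Neither edgeR (0 of 2651, lowest adjusted p = 0.122, 11 and 17 unadjusted) nor DESeq2 (0, lowest adjusted p = 0.903, 41 and 10) called a gene. In 404 genes (14.6%) R397W was higher in both libraries and in 194 (7.03%) lower. Without R397W IgG replicate 2 limma called 167 genes (6.05%).

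The genes with most background were Zbtb7a, 1700056E22Rik, Amz2, Acot11 and Ramp3, so summing over sites changed the leaders little. Among genes higher in R397W, Ubr2, a ubiquitin ligase of the N-degron pathway, had 39.7 and 54.9 in WT against 263 and 294 in R397W, a difference of 2.55 (SE 0.51, limma adjusted p = 0.962). Clip2, a microtubule-binding protein, had 96.5 and 12.4 against 321 and 151 (2.61), and 2210010C04Rik differed by 2.54. Among genes lower in R397W, Cmtm6, which stabilises PD-L1 at the cell surface, had 233 and 279 in WT against 74.7 and 45.2 in R397W, a difference of −2.11 (SE 0.54). Aig1, a lipid hydrolase, and Olig3, a neural transcription factor, differed by −2.05 and −2.01. All had a limma adjusted p of 0.962, and the 4 values at Ubr2 and at Cmtm6 were close within each genotype.

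Common sites had more background per site than the other classes, and the genotypes overlapped in each class. Mean RPM per site was 204 and 219 in WT against 199 and 215 in R397W for common sites. For cTreg sites they were 131 and 99.9 in WT against 172 and 119 in R397W, and for eTreg sites 126 and 87.8 in WT against 116 and 91.3 in R397W. Common sites were highest in all 4 libraries. Without promoters the common sites held 167, 140.2, 176 and 150 in WT 1, WT 2, R397W 1 and R397W 2, and their lead narrowed. The other cTreg sites held 123, 97.1, 167 and 113 and the eTreg sites 125, 86.4, 114 and 87.4.

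The log2 mean normalised count differed between genotypes by 0.24 in common, 0.21 in cTreg and 0.58 in eTreg sites, each with an exact permutation p = 0.667. Within library numbers 1 and 2 the difference was 0.32 and 0.17 in common sites. It was 0.30 and 0.12 in cTreg and 0.45 and 0.71 in eTreg sites. With equal totals the common and eTreg differences were −0.03 and −0.03. Without R397W IgG replicate 1 the common difference was −0.0062 and the cTreg one −0.31, and without WT IgG replicate 2 the cTreg one was −0.22. The log2 ratio of eTreg to cTreg reads was 0.32 and 0.20 in WT against −0.18 and 0.0028 in R397W. The genotypes did not overlap, with a difference of −0.35 and an exact permutation p = 0.333, the smallest possible here. The ratio of cTreg to common reads differed by 0.35 (exact permutation p = 0.667) and that of eTreg to common by 0.0051 (p = 1 by the same exact test). The eTreg to common difference was −0.30 without WT IgG replicate 2 and −0.22 without R397W IgG replicate 1. Separation of the genotypes in eTreg to cTreg reads was not particular to IgG. In the Foxp3 libraries eTreg and cTreg reads numbered 43752 and 36488 in WT 1 and 48760 and 30862 in WT 2. They numbered 12748 and 15966 in R397W 1 and 27992 and 29142 in R397W 2. There eTreg reads exceeded cTreg reads in WT only.

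Background at genes of Treg and T cell biology differed from list to list. The median over sites was 53.9 RPM for 39 core Treg sites, 76.5 for 60 effector Treg sites and 68.5 for 87 sites of the naive and resting list, against 82.4 over all sites. The 75 sites of T cell receptor signalling genes stood at 80.0, 21 sites of NF-kB and TNF receptor genes at 70.1 and 33 sites of immediate early genes at 103. The highest medians were those of the AP-1, IRF and NFAT list (11 sites), at 187, and of 9 sites of conventional T cell cytokines, at 216. The 5 housekeeping sites stood at 107 and the 3 CD8 T and NK cell sites at 92.2. These small lists are described without a test. Their promoter shares differed, with 2 of 11 AP-1, IRF and NFAT, 2 of 9 cytokine and 2 of 5 housekeeping sites. Promoters were 2 of 39 core Treg, 0 of 21 NF-kB and 1 of 33 immediate early sites. Over all sites they were 592 of 5521, and the medians were not adjusted for promoters.

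In genotype, R397W was higher without overlap at 5 core Treg sites and lower at 2, and the corresponding counts were 7 and 2 for effector, 11 and 2 for naive, 5 and 2 for receptor signalling, 5 and 2 for immediate early and 3 and 1 for both NF-kB and AP-1, IRF and NFAT genes. They were 1 and 2 for housekeeping genes, 1 and 1 for cytokines and 0 and 0 for CD8 T and NK cell genes. Over all sites the shares were 11.3% and 5.51%, as above. Median differences were 0.53 for core Treg, 0 for effector, 0.71 for naive, 1.41 for AP-1, IRF and NFAT, 0.84 for cytokine, 0.57 for receptor signalling, 0.89 for NF-kB, 0.52 for immediate early and 0.53 for CD8 T and NK cell sites. The housekeeping median was −0.24, and that of all sites 0.33. No site of any list had an unadjusted limma p below 0.05.

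The highest core Treg site lay inside Il2ra, the alpha chain of the IL-2 receptor (chr2:11653356-11653756), with IgG counts of 138 and 70.7 in WT against 256 and 159.7 in R397W. In the Foxp3 libraries it had 329 and 568 in WT against 228 and 249.98 in R397W. Both R397W IgG values exceeded both WT IgG values, while both R397W Foxp3 values lay below both WT Foxp3 values. In RPM the IgG order held, with 702 and 493 in WT against 1015 and 970 in R397W. The Foxp3 genotypes then overlapped, with 969 and 3092 in WT against 782 and 1380 in R397W. The IgG difference at this site, on deposited counts, was 1.02 (SE 0.66, limma adjusted p = 0.853).

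Promoters led several other lists. The promoter of Lat, an adaptor of T cell receptor signalling (chr7:126369392-126369792, centre 24 bp before the start), had 202 and 608 in WT against 152 and 136 in R397W. That of Eef1a1, a translation elongation factor of the housekeeping list (chr9:78480816-78481216), had 163 and 422 against 56.6 and 89.1. That of Btg2, an antiproliferative immediate early gene (chr1:134079123-134079523), had 259 and 523 against 177 and 312. WT was above R397W in both libraries at Lat and Eef1a1 and overlapped it at Btg2. At Bcl6, a transcriptional repressor of follicular T cells (chr16:23988518-23988918), the values were 68.7 and 227 in WT against 129 and 298 in R397W, and at Fosl2, an AP-1 subunit (chr5:32135461-32135861), they were 288 and 229.9 against 238 and 424. The genotypes overlapped at Bcl6 and Fosl2. Sites not counted as promoters led other lists, at Tcf7 (given above), Il21, Nfkb1 and Klrb1c. Counts near Il21 were 10.6 and 288 in WT against 145 and 58.5 in R397W. They were 176 and 98.5 against 102 and 159 inside Nfkb1, and 50.9 and 12.0 against 54.5 and 0 near Klrb1c. WT and R397W overlapped at these sites. For the Nfkb1 site the nearest start in the table was that of another gene, Slc39a8.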

How the data were processed

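CUT&Tag libraries were read as the normalised signal that the authors deposited per library at each listed site, in 3 files, 1 per site class. The file names call the signal spike-in normalised, per the authors, and the submitters' processing notes list mm10, dm6, DiffBind 3.12.0 and Bowtie2 2.5.2 without saying what each was for. Within each library and file 100% of deposited signal values were whole multiples of the value of 1 read (tolerance 0.01), so whole read counts were recovered. Each file has its own factor per library. The treatment of duplicates is stated neither in the labels nor in the file headers.

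Genotypes were compared with limma 3.58.1 under R 4.3.3, as a two-sided test with a trended prior, on log2(normalised count + 1) of the 4 IgG libraries, over all 5521 sites with Benjamini-Hochberg adjustment and a threshold of 0.05. The log scale understates the change of weak sites. Recovered counts went into DESeq2 1.42.0 and into the quasi-likelihood test of edgeR 4.0.16. Gene sums used the gene whose body, widened by 5 kb, held the site centre, or else the gene whose end lay nearest, up to 100 kb away. Values per library were compared with two-sided exact permutation tests. Other settings were a pseudocount of 0.5 or 5, no sites from the lowest 25%, other scalings, no trend, a replicate block, all 8 libraries, other promoter limits and each library left out in turn. The promoter comparison of IgG with Foxp3 libraries, that of common sites alone, the other ways of choosing high-background sites and the removal of sites within 1 kb of an end of a gene without a start were added after the data were seen. Methods were tested on simulated data.

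Gene starts and promoter sequences are RefSeq GRCm38.p6, the build that mm10 corresponds to, and positions within a gene (exon, intron, UTR) were not analysed here. The table gives starts for 17492 of 21900 protein-coding genes. Sites on chromosomes with no start in it, such as 18, were left out of promoter comparisons, and a site near a gene without a start was measured to the nearest start of another gene. Coordinates are as the files give them.

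Named sites were the 5 highest by mean IgG signal and the highest 2 of each class, the 2 sites per class and direction with the largest fitted difference without overlap, the 4 per direction with at least 5 reads in every IgG library, and the highest site of each gene list. Named genes were the 5 highest, and the 3 per direction with at least 20 reads in every IgG library. Get1, Cfap20, Psph, Foxp3, Zfp93, Trim5, Skil, Atg16l1, Necap2 and Pnrc2 were named outside this rule after their values were seen. The members and lists were chosen with earlier results of these data known.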

Additional observations from a re-analysis of the deposited data

How the results depend on the processing

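Having 2 libraries per genotype, uneven coverage and 111359 reads in the smallest library limit every comparison here, and a site with 0 reads may hold up to 3. The count of site calls (0 by limma) was 1 without the lowest 25% of sites, 2 with all 8 libraries, and 0 to 826 when single libraries were left out. That of genes (0) was 0 to 167. With libraries left out, the difference R397W minus WT ran from −0.0062 to 0.50 (common mean), −0.31 to 0.73 (cTreg mean), 0.19 to 0.96 (eTreg mean), −0.30 to 0.31 (eTreg to common) and −0.91 to 0.18 (promoter ratio), on the log2 scale. It ran from −6.46 to 2.13 points for reads in the top 1% and from −28.0 to 13.2 points for sites without reads. With equal totals the common and eTreg means differed by −0.034 and −0.029, and by shares of sites with reads the eTreg to common ratio differed by −0.061. The eTreg to cTreg ratio kept its sign, from −0.44 to −0.25, as did cTreg to common, from 0.03 to 0.68. Genotypes did not overlap in the eTreg to cTreg ratio, so leaving out a library could not reverse its sign. The cause of these shifts was not tested. High-background sites were 49.1% to 58.5% promoters with libraries left out.

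By the rule used here replicate numbers were not taken to pair the IgG libraries (r = 0.087 between deviations of same-numbered libraries over 5521 sites). This r is taken over sites, so a shift shared by all sites of a library does not enter it. With the replicate block limma called 0 sites and 0 genes, with 29 sites and 42 genes at an unadjusted p below 0.05 against 26 and 19 without it. In sites without reads, reads in the top 1% and the promoter ratio, R397W lay below WT within both numbers. The block gave an exact permutation p = 0.5 for each, the smallest that 2 pairs allow. R397W lay above WT within both numbers in the mean normalised count of each class and in the cTreg to common ratio. It lay below WT within both in the eTreg to cTreg ratio, and the block again gave an exact permutation p = 0.5 for each. The eTreg to common ratio changed direction between the numbers. Of 392 alternative values for 28 named differences, 384 kept their direction and side of the threshold, 6 passed it without R397W IgG replicate 2, 2 passed it at Zbtb7a under the settings given above, and 0 reversed. The 28 were chosen among sites and genes whose genotypes did not overlap. Leaving out a library or changing the pseudocount could therefore not reverse their direction.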

Other observations

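Direction in the IgG libraries was set beside direction in the Foxp3 antibody libraries, which share no library with them. Of the 625 sites with higher IgG signal in R397W without overlap, 240 (38.4%) had a higher mean in R397W in the Foxp3 libraries and 383 (61.3%) a lower one. Of the 304 sites with lower IgG signal, 134 (44.1%) were higher and 168 (55.3%) lower with the Foxp3 antibody. Over all 5521 sites the shares were 38.5% and 60.4%.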
